A study of Mus musculus with 6 samples.

Results

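The genes described here encode the enzymes of the citric acid cycle, the machinery that brings pyruvate into it, and the carriers and enzymes that take malate and citrate out of it. They were chosen by name, 34 in all, and 33 of the 22180 genes measured were among them, with Mpc2 not analysed here. The data were 6 microarrays of leukaemia cells from mice on a C57BL/6J background. The WT group held 3 arrays of leukaemias driven by the fusion oncogene MLL-AF9 in wild-type mice, and the Evi1 Tg group held 3 arrays of MLL-AF9 leukaemias that also carried an Evi1 transgene. MLL-AF9 was thus shared by both groups, all cells were untreated, and Evi1, a zinc finger transcription factor encoded by Mecom, set them apart. Each array read total RNA of 10000 leukaemia cells sorted for green fluorescence, which the labels call whole leukaemia cells. The sources used here give neither the promoter and form of the transgene, nor the age of the mice, nor how many mice lie behind each array, and p-values measure the spread between these samples, which may be technical. The series title speaks of metabolic reprogramming with EVI1, and the design held the single comparison of Evi1 Tg with WT.

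The citric acid cycle oxidises acetyl groups to carbon dioxide inside mitochondria and hands the electrons to the respiratory chain. Pyruvate made by glycolysis crosses the inner membrane through the mitochondrial pyruvate carrier and becomes acetyl-CoA by the pyruvate dehydrogenase complex or oxaloacetate by pyruvate carboxylase. Citrate and malate can also leave the mitochondrion to supply acetyl-CoA and NADPH for lipid synthesis in the cytosol, where isoforms of some cycle enzymes act.

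Values are log2 probe set intensities, a difference is the Evi1 Tg mean minus the WT mean on that scale, and SE is the standard error of limma's moderated test. The arrays had median intensities of 51.6 to 55.4, and background was set at an intensity of 78.9 (log2 6.3), below which 90% of 57 measured genes that are silent in blood cells had their mean. Of the 33 genes, 1 had its mean below that level, namely Pdk2. All 15 myeloid markers had means above background, while 5 of 5 measured B cell, 4 of 4 erythroid, 6 of 7 T and NK cell, 6 of 8 macrophage, 6 of 8 stromal and endothelial, 3 of 8 neutrophil and 1 of 5 megakaryocyte markers lay below it. Mecom itself lay below background in both groups, at mean intensities of 36.9 and 38.6 (difference 0.06, SE 0.089), so that the groups rest on the labels alone. The array WT 3 stood apart from WT 1 and WT 2 in genes of cell division and DNA replication. The differences that it moved most are given with and without it.

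The promoters of the isocitrate dehydrogenase isoforms Idh1 and Idh2, of the citrate exporter Slc25a1, of the citrate-cleaving enzyme Acly and of the succinate dehydrogenase subunit Sdhb are shown, 5 of the 7 genes whose groups did not overlap. Each line gives the 250 bases before an annotated start, 5′ to 3′ on the gene's strand, from RefSeq's table of build GRCm38.p6, and Idh1 has 2 annotated starts. Capitals mark exact matches, on either strand, to the NRF1 core GCATGC, the core AGGTCA of ERR sites, the E-box CACGTG, the ETS core CCGGAAG or the GATA-like core AGATAA of EVI1 sites.
Idh1, downstream start, chr1:65179143-65179392, minus strand: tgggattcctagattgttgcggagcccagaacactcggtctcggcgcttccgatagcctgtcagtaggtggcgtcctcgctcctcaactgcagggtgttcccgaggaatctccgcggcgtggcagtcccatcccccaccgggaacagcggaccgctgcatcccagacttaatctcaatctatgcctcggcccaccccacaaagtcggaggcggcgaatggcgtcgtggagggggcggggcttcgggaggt
Idh1, upstream start, chr1:65186480-65186729, minus strand: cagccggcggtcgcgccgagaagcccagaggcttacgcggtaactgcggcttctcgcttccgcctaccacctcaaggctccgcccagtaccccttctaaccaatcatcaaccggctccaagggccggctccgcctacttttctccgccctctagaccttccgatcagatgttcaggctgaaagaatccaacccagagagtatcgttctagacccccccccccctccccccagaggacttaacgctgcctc
Idh2, chr7:80115351-80115600, minus strand: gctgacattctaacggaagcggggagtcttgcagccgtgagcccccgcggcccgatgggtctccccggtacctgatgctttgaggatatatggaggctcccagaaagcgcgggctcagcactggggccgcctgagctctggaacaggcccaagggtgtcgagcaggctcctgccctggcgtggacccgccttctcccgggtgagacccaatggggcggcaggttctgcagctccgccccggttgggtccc
Slc25a1, chr16:17928220-17928469, minus strand: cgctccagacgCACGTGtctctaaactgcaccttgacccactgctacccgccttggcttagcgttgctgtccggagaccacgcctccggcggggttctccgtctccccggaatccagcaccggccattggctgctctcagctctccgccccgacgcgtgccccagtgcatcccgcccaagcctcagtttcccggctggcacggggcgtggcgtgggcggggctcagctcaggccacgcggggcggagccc
Acly, chr11:100528001-100528250, minus strand: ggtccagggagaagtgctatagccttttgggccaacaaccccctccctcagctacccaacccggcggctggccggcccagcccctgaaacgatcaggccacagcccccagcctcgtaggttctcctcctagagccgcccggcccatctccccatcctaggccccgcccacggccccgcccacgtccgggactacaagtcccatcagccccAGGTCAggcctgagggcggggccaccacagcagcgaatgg
Sdhb, chr4:140961021-140961270, plus strand: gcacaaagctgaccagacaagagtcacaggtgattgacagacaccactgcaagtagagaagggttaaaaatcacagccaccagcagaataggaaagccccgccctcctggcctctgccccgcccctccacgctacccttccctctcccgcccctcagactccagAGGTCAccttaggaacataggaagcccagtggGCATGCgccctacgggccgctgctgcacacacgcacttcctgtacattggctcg

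The windows of Idh1 and Idh2 held none of these letters. That of Sdhb held an ERR core and an NRF1 core, that of Acly an ERR core and that of Slc25a1 an E-box. RefSeq windows were found for 30 of the 34 genes, 39 windows in all. An E-box lay in 15.4% of these windows and in 6.02% of all 32851 windows of the same length, an NRF1 core in 10.3% and 6.7%, an ERR core in 12.8% and 14%, an ETS core in 7.69% and 6.91%, and a GATA-like core in 2.56% and 9.99%. The 6 E-box windows belonged to Ogdh, Pcx, Pdk2 and Slc25a1, and the 1 window with a GATA-like core to Dld. Windows of 1 gene can overlap, a match describes letters in a window, and no binding was measured.

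No gene of the pathway passed the test between Evi1 Tg and WT. By limma with Benjamini-Hochberg adjustment over all genes, 0 of 33 genes had an adjusted p under 0.05, where 0.113% of all genes did. At an unadjusted p under 0.05 there were 6 of 33 (18.2%), 3 higher and 3 lower in Evi1 Tg, where 10.3% of all genes (4.5% higher and 5.8% lower) and 18.1% of the 9605 genes above background did. A test without moderation called 0 of all 22180 genes. It had 6 of the 33 and 7.98% of all genes at an unadjusted p under 0.05. With trend and robust settings of limma there were 4 of the 33, where 9.72% of all genes were. With dim genes left out there were 4 of 32, where 14.5% of the 9605 genes were. In both settings Sdhb and Slc25a1 were no longer under 0.05. The groups of 3 arrays did not overlap for 7 of the 33 genes (21.2%), 3 higher and 4 lower, where 14.6% of all genes (7.08% higher and 7.47% lower) and 19.5% of those above background had such separate groups. With quantile normalization there were 5 (3 higher and 2 lower), where 15.8% of all genes had separate groups: Sdhb, Acly and Slc25a1 then overlapped and Mdh1 did not. In the values as deposited the shares lay close to those of genes above background. The median difference of the 33 genes was 0.003, with 17 above and 16 below 0, where the median over all genes was 0.012. The smallest adjusted p was 0.195, for Idh2. In RNA of whole cells, fewer cells of a type and less RNA per cell cannot be told apart.

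**Figure D1:**
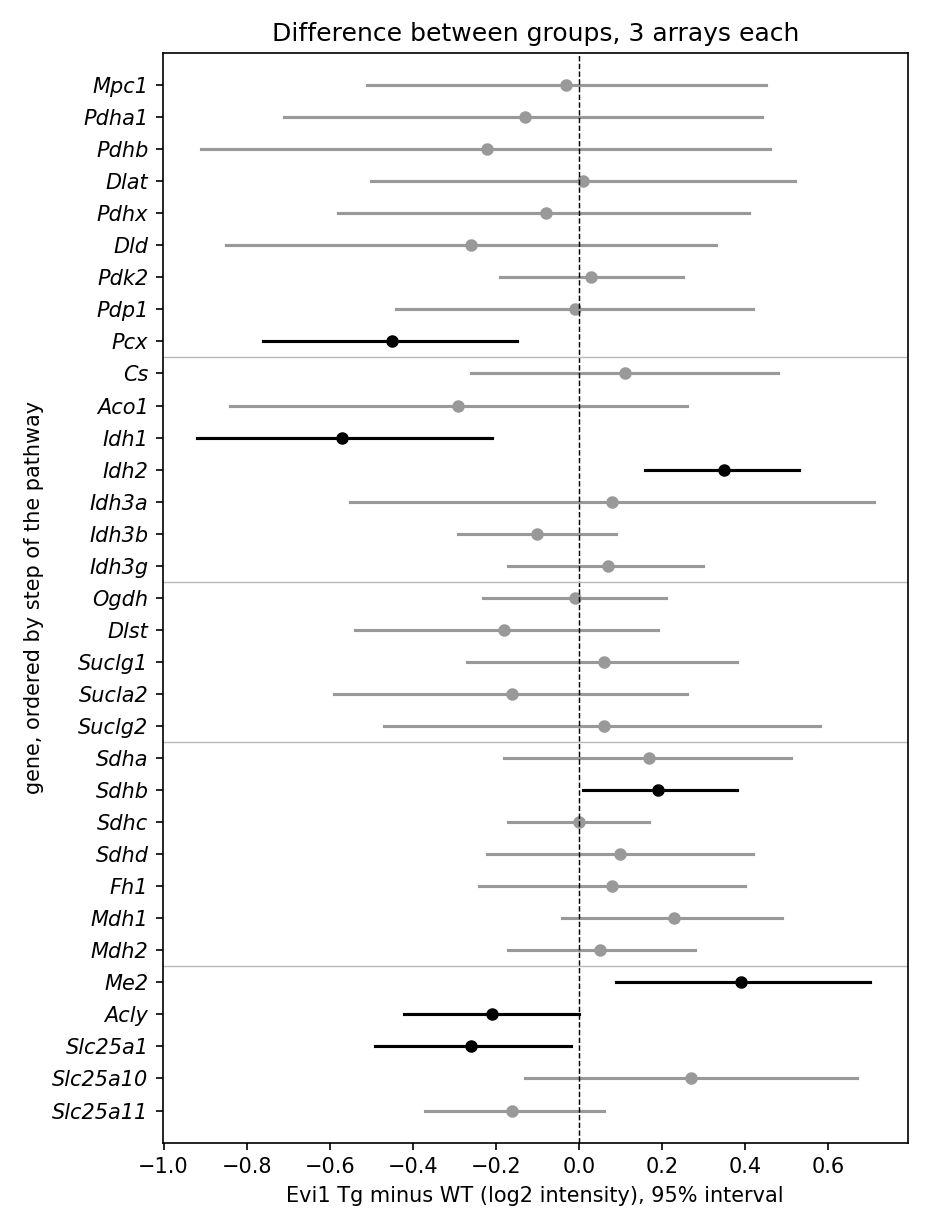
Difference between the Evi1 Tg and WT means (horizontal axis, log2 intensity) of each of the 33 genes, with its 95% interval from limma; black marks genes whose groups of 3 arrays did not overlap. Idh1, Pcx, Acly and Slc25a1 lie below 0 and Idh2, Me2 and Sdhb above it, and wide intervals run across 0 for the pyruvate dehydrogenase subunits.

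The isocitrate dehydrogenases that use NADP had differences of opposite sign, and neither passed the test over all genes. Idh1 encodes the enzyme of the cytosol and peroxisomes, which makes 2-oxoglutarate and NADPH. Its log2 values were 10.66, 10.24 and 10.70 in WT 1, 2 and 3 and 10.16, 9.85 and 9.89 in Evi1 Tg 1, 2 and 3. Every Evi1 Tg array lay below every WT array, with a gap of 0.08 between the nearest. Mean intensities were 1482 (WT) and 1000 (Evi1 Tg), a difference of -0.57 (SE 0.151, n = 3 arrays each, limma adjusted p = 0.255). Idh2 encodes the mitochondrial enzyme of the same reaction. It had 9.55, 9.49 and 9.59 in WT, compared with 9.94, 9.86 and 9.87 in Evi1 Tg. The groups were narrow, with an SD of 0.05 and 0.04, and lay 0.27 apart. Mean intensities were 745 (WT) and 947 (Evi1 Tg), a difference of 0.35 (SE 0.077, n = 3 arrays each, limma adjusted p = 0.195). With trend and robust settings of limma the SE of Idh2 was 0.118 (limma adjusted p = 0.369).

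The ratio of Idh2 to Idh1 was compared between arrays, 1 of 4 ratios of related enzymes that were chosen after the values of the genes were seen. Relative to its mean over the 6 arrays, the log2 ratio was -0.58, -0.21 and -0.57 in the WT arrays, and 0.31, 0.54 and 0.52 in the Evi1 Tg arrays. The mean ratio was 1.88-fold higher in Evi1 Tg (difference 0.91 on the log2 scale), and 0.85 without WT 3. Since the values of both genes already lay apart in opposite directions, the separation of their ratio follows from them. It is given as a description, without a p-value. The same comparison for the malate dehydrogenases Mdh2 and Mdh1 gave -0.17 and for the succinyl-CoA ligase subunits Suclg2 and Sucla2 0.22, also as descriptions.

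The other enzymes between citrate and 2-oxoglutarate had small differences. Cs, the citrate synthase, had a difference of 0.11 (95% interval -0.26 to 0.48), with WT 1 lowest at 10.35 and WT 3 highest at 10.97. The difference of Cs was 0.27 without WT 3 and -0.04 without WT 1. Aco1, the cytosolic aconitase, which also binds iron-responsive elements as IRP1, had -0.29 (-0.84 to 0.26). Its Evi1 Tg arrays were spread widely, at 8.35, 8.58 and 7.68, so that Evi1 Tg 3 alone lay below all WT arrays, and without it the difference was -0.03. The subunits of the NAD-dependent isocitrate dehydrogenase had 0.08 (Idh3a), -0.10 (Idh3b) and 0.07 (Idh3g). Idh3a, its catalytic subunit, stood at 10.21 in WT 3 against 9.28 and 9.26 in the other WT arrays, and between 9.40 and 9.81 in Evi1 Tg. The difference of Idh3a was 0.39 without WT 3 (limma adjusted p = 0.225) and -0.07 without WT 1.

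**Figure D2:**
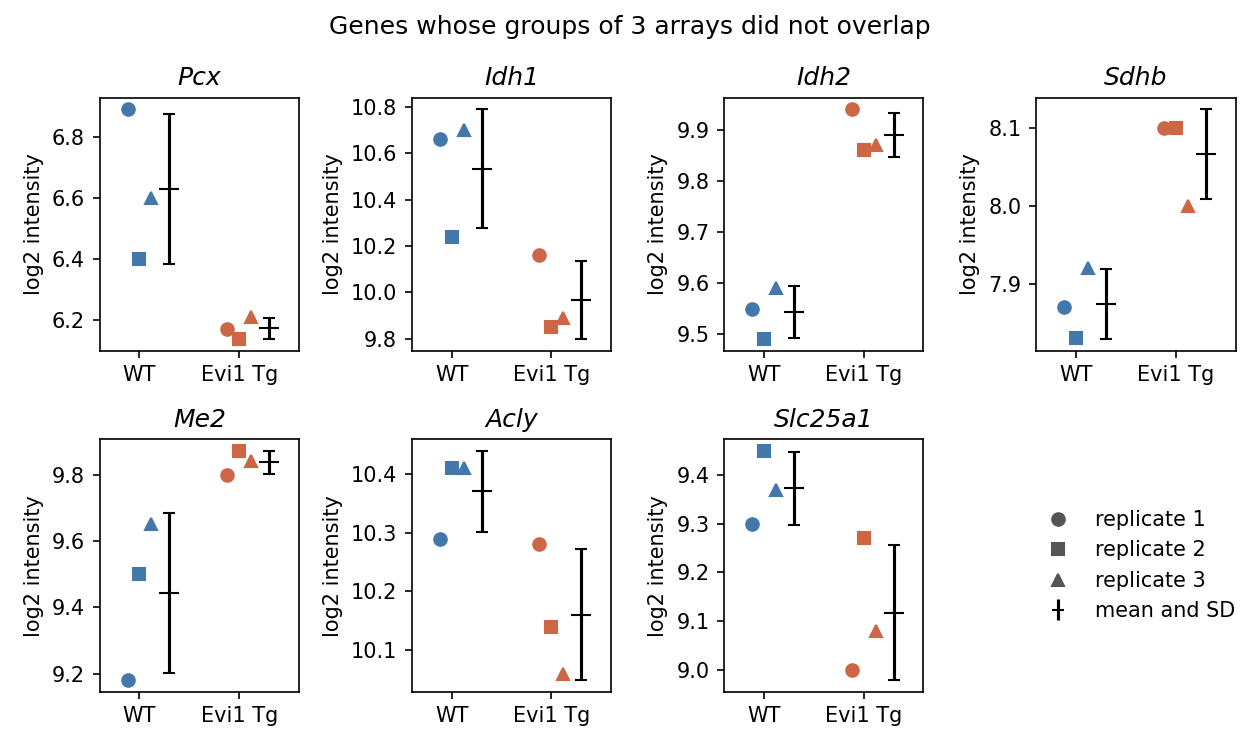
Log2 intensity (vertical axes, each with its own range that does not start at 0) of the 7 genes whose groups did not overlap, with replicates as symbols and the mean and SD (n = 3) beside them. The gap between groups is widest for Idh2, at 0.27, and smallest for Acly, at 0.01.

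At the entry of pyruvate, Pcx had the smallest p. Pcx encodes pyruvate carboxylase, which refills the cycle with oxaloacetate. It had log2 values of 6.89, 6.40 and 6.60 in WT, compared with 6.17, 6.14 and 6.21 in Evi1 Tg. All Evi1 Tg arrays lay close together and below WT, at a mean intensity of 72.2 that is under the background level, against 98.9 in WT, so the size of the difference is bounded by background (difference -0.45, SE 0.129, limma adjusted p = 0.282). Of the pyruvate carrier, Mpc1 was measured by 2 probe sets, which read mean intensities of 1421 and 1389 (difference -0.03) and of 138 and 142 (difference 0.05) in WT and Evi1 Tg. Pdk2, a kinase that switches pyruvate dehydrogenase off, had a difference of 0.03 below background, and Pdp1, the phosphatase that switches it on, had -0.01. Without WT 3 the brighter probe set of Mpc1 had 0.18 and Pdp1 had 0.19.

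The subunits of the pyruvate dehydrogenase complex were highest in 1 array, WT 3. Pdhb, the beta subunit of its first enzyme, had 9.75, 9.97 and 10.87 in the WT arrays, and 9.75, 9.94 and 10.23 in the Evi1 Tg arrays. WT 3 was the highest array, and the remaining WT arrays lay close to Evi1 Tg 1 and 2. Dld, the lipoamide dehydrogenase shared with the 2-oxoglutarate dehydrogenase complex, had 10.19, 10.38 and 11.11 in WT, compared with 10.10, 10.22 and 10.59 in Evi1 Tg. For the next 3 genes WT 3 was likewise the highest and WT 1 lay below all Evi1 Tg arrays: Pdha1, the alpha subunit (8.72, 9.03 and 9.69 in WT, 8.80 to 9.19 in Evi1 Tg), Dlat, the acetyltransferase (7.84, 7.94 and 8.66, against 8.04 to 8.28), and Pdhx, which binds Dld to the complex (7.10, 7.02 and 7.83, against 7.16 to 7.27). In all 5 genes WT 3 was the highest of the 6 arrays, by 0.77 to 1.02 above the mean of WT 1 and WT 2. Their differences were -0.22 (Pdhb), -0.26 (Dld), -0.13 (Pdha1), 0.01 (Dlat) and -0.08 (Pdhx), each with a 95% interval that included 0. Without WT 3 all 5 lay above 0, at 0.12, 0.02, 0.14, 0.27 and 0.17, and 0 of them passed (limma adjusted p from 0.265 for Dlat to 0.984 for Dld).

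WT 3 was the highest array for 23 of the 33 genes (69.7%), against 32.5% of genes above background and 19.3% of all genes. Over the 33 genes the median deviation from each gene's mean was -0.18, -0.10 and 0.24 in WT 1, 2 and 3 and -0.02, 0.03 and 0.05 in Evi1 Tg 1, 2 and 3. WT 1 and WT 2 thus lay below all Evi1 Tg arrays and WT 3 above them. The 25 genes of DNA replication had median deviations of -0.68, -0.57 and 0.36 in the WT arrays, and 0.17, 0.37 and 0.33 in the Evi1 Tg arrays, and the 24 measured genes of cell division -0.50, -0.70 and 0.30 in WT, compared with 0.25, 0.28 and 0.44 in Evi1 Tg. In those lists WT 3 lay among the Evi1 Tg arrays, whereas for the pyruvate dehydrogenase complex (0.61) it lay above all of them (-0.28, -0.03 and 0.12). The part of proliferation in the values of the pathway was not tested. Without WT 1 the median difference of the 33 genes was -0.081, with 10 above 0, and without WT 2 -0.069, with 13 above 0. Without WT 3 it was 0.143, with 24 above 0. There were then 13 genes at an unadjusted p under 0.05, where 16.5% of all genes were. Separate groups were had by 19, where 32.3% of all genes had them. The shares among genes above background were not taken without WT 3, so these counts have no like reference. Still 0 of the 33 had an adjusted p under 0.05, where 2.51% of all genes did, and the smallest, 0.072, was that of Slc25a10.

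**Figure D3:**
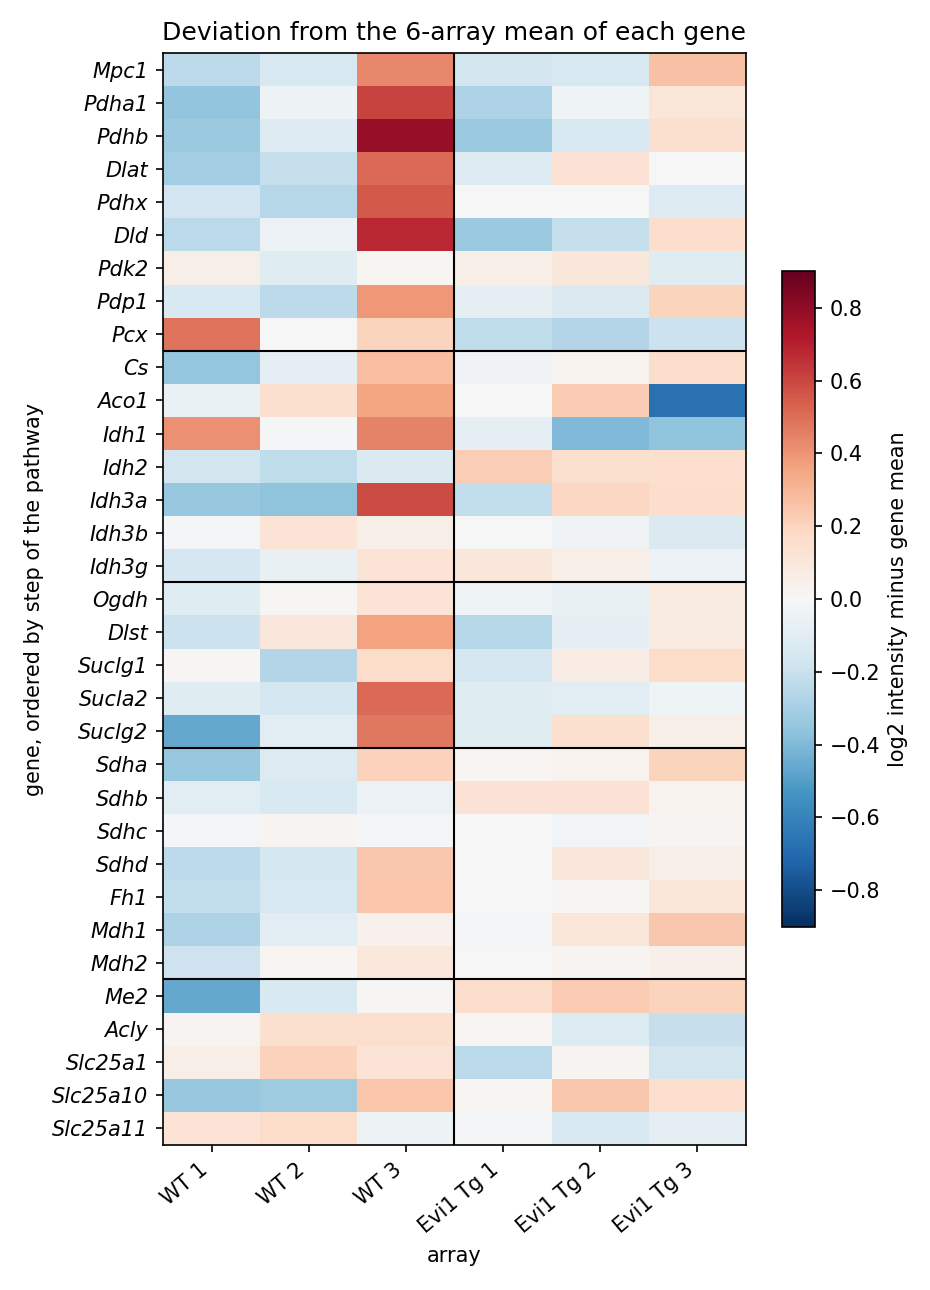
Heat map of the deviation of each gene (rows, by step of the pathway) from its own mean over the 6 arrays (columns), in log2 intensity, with lines between steps and between groups. The column of WT 3 is the highest for 23 of 33 rows, and the row of Idh2 changes colour at the line between the groups.

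**Figure D4:**
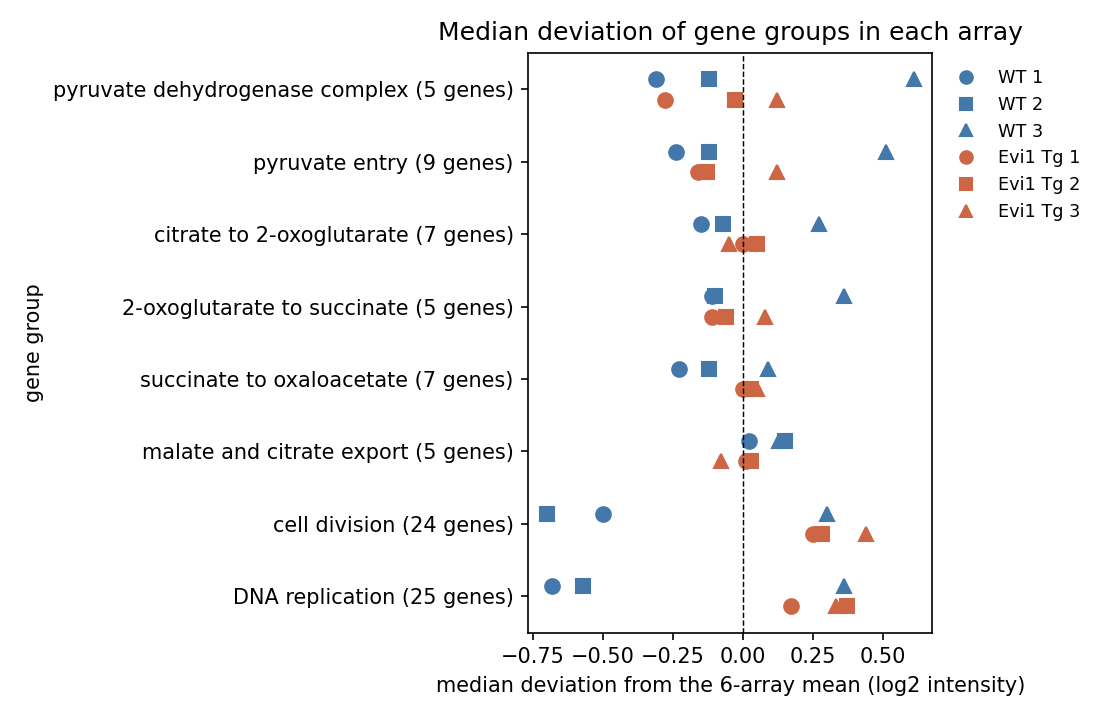
Median deviation from the gene's 6-array mean (horizontal axis, log2 intensity) of the pyruvate dehydrogenase complex, the 5 steps, and the lists of cell division and DNA replication, with a symbol per array. WT 3 stands at 0.61 for the pyruvate dehydrogenase complex and at 0.13 for malate and citrate export.

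Between 2-oxoglutarate and succinate none of the 5 genes had separate groups. Ogdh, the first enzyme of the 2-oxoglutarate dehydrogenase complex, had a difference of -0.01 (95% interval -0.23 to 0.21). Dlst, its succinyltransferase, had 9.67, 9.96 and 10.22 in the WT arrays, and 9.60, 9.77 and 9.94 in the Evi1 Tg arrays. The groups overlapped, with WT 3 highest, and the difference was -0.18 (SE 0.156, limma adjusted p = 0.798). It was -0.04 without WT 3, -0.09 without Evi1 Tg 1 and -0.31 without WT 1. The succinyl-CoA ligase has a common subunit, Suclg1 (0.06), and partners that use ADP, Sucla2 (-0.16), or GDP, Suclg2 (0.06). WT 3 was the highest array for all 5 genes of this step. Without WT 3 Ogdh had 0.04, Suclg1 0.16, Sucla2 0.05 and Suclg2 0.31. A second probe set of Suclg2 read mean intensities of 43.8 and 47.4, below background.

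From succinate to oxaloacetate the mean was higher in Evi1 Tg for 7 of 7 genes, against 11877 of all 22180 genes. These 7 had a median difference of 0.10, and 0 passed the test. The sign turned for 3 of them in other settings. Sdhc turned to -0.01 with median centring and without Evi1 Tg 3, and lay just below 0 without WT 1 or without WT 3. Without WT 1 Fh1 and Mdh2 were each at -0.02. Sdhb, the iron-sulphur subunit of succinate dehydrogenase, had 7.87, 7.83 and 7.92 in WT, compared with 8.10, 8.10 and 8.00 in Evi1 Tg. The groups lay 0.08 apart, and WT 3 stayed with the other WT arrays (difference 0.19, SE 0.078, limma adjusted p = 0.460). The flavoprotein subunit Sdha had 0.17 and the membrane anchors Sdhc and Sdhd 0.00 and 0.10. Without WT 1 Sdha had 0.04 and Sdhd 0.01, and without WT 3 they had 0.31 and 0.25. Sdhc was the steadiest of the 33 genes, with a range of 0.06 over the 6 arrays. The fumarase Fh1 had 0.08 and the mitochondrial malate dehydrogenase Mdh2 0.05. Without WT 3 Fh1 had 0.22 and Mdh2 0.11. Mdh1, the cytosolic malate dehydrogenase, had 8.85, 9.03 and 9.17 in the WT arrays, and 9.12, 9.24 and 9.37 in the Evi1 Tg arrays, so that only WT 3 overlapped with Evi1 Tg 1 (difference 0.23, SE 0.113, limma adjusted p = 0.560). The difference was 0.14 without WT 1 and 0.30 without WT 3. The median difference of the step was 0.008 without WT 1 and 0.223 without WT 3.

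Among the genes of malate and citrate export, 3 of 5 had separate groups, where 14.6% of all genes and 19.5% of those above background did, and 1 of 5, Me2, with quantile normalization. Me2 encodes the mitochondrial malic enzyme, which turns malate into pyruvate. It had 9.18, 9.50 and 9.65 in WT, compared with 9.80, 9.87 and 9.84 in Evi1 Tg. The Evi1 Tg arrays lay within 0.07 of each other and above WT, at mean intensities of 915 against 696 (difference 0.39, SE 0.128, limma adjusted p = 0.350), and without WT 1, the lowest array, the difference was 0.26. Slc25a1, the mitochondrial citrate carrier, had 9.30, 9.45 and 9.37 in the WT arrays, and 9.00, 9.27 and 9.08 in the Evi1 Tg arrays, a gap of 0.02 between the nearest arrays (difference -0.26, SE 0.100, limma adjusted p = 0.439). Acly, which splits exported citrate into acetyl-CoA and oxaloacetate, had 10.29, 10.41 and 10.41 in WT, compared with 10.28, 10.14 and 10.06 in Evi1 Tg. WT 1 and Evi1 Tg 1 were nearly level, and the difference was -0.21 (SE 0.091, limma adjusted p = 0.495). The 2-oxoglutarate carrier Slc25a11 had -0.16. The dicarboxylate carrier Slc25a10 had 6.63, 6.65 and 7.22 in the WT arrays, and 6.99, 7.21 and 7.12 in the Evi1 Tg arrays, a difference of 0.27 that was 0.46 without WT 3.

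Of the other genes around the cycle, 31 of 35 listed symbols were measured, with the rest not analysed here, and 0 passed over all genes. Their median difference was -0.047, with 14 above and 17 below 0, and it was 0.075 without WT 3. At an unadjusted p under 0.05 there were 1 higher and 3 lower, 4 of 31 (12.9%), where 10.3% of all genes were (4.5% higher and 5.8% lower). Me1, the cytosolic malic enzyme, which makes NADPH, had 9.35, 9.12 and 8.84 in WT, compared with 7.95, 7.48 and 8.48 in Evi1 Tg. All Evi1 Tg arrays lay below WT, Evi1 Tg 3 the nearest (difference -1.13, SE 0.254, limma adjusted p = 0.198). The log2 ratio of Me2 to Me1 differed by 1.53, which follows from the values of both genes and is given as a description. Acss2, which makes acetyl-CoA from acetate in the cytosol and nucleus, had 6.93, 7.09 and 6.77 in WT, compared with 6.61, 6.32 and 6.21 in Evi1 Tg (difference -0.55, SE 0.135). Its mean intensity in Evi1 Tg, 83.3, lay near the background of 78.9, which limits the size of that difference. Clybl, a mitochondrial citramalyl-CoA lyase, had 7.63, 8.12 and 7.89 in the WT arrays, and 7.35, 7.46 and 7.56 in the Evi1 Tg arrays (difference -0.43, SE 0.136). For both genes every Evi1 Tg array lay below every WT array. Got2, the mitochondrial aspartate aminotransferase, had 10.66, 11.06 and 11.06 in WT, compared with 11.18, 11.28 and 11.24 in Evi1 Tg, all of them above WT (difference 0.31, SE 0.126). Lipt1, a lipoyl transferase, had a difference of 0.27 (SE 0.131) with both means below background. The limma adjusted p of these 4 genes lay between 0.231 and 0.553.

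Markers of other cells and of maturation also varied between arrays. The summed intensity of 8 macrophage markers was 1860 to 2597 in WT and 877 to 1991 in Evi1 Tg. It was led by Adgre1 (difference -1.13, separate groups) and Vcam1 (-1.32, SE 0.736). The groups of Vcam1 overlapped, with Evi1 Tg 3 at 9.97 against 9.76 in WT 1 and 9.14 in WT 3. C1qa, C1qb, C1qc and Cd163 lay below background in both groups. The summed intensity of 8 neutrophil markers was 1152 to 5707 in WT, highest in WT 2, and 1345 to 2909 in Evi1 Tg. Of the 15 myeloid markers 9 had differences above and 6 below 0 (median 0.036), and 0 passed. They ran from 2.80 (Mpo), 1.22 (Kit) and 0.44 (Elane), with separate groups, to -0.31 (Csf1r), -0.36 (Lyz2) and -0.39 (Ptprc, separate groups). Mpo read an intensity of 68.1 in WT 2, below background. The summed intensity of the 15 markers was 26830 to 34665 in WT and 31181 to 35253 in Evi1 Tg. The sums were 358 to 710 and 349 to 469 for 5 megakaryocyte markers, 199 to 210 and 204 to 220 for 4 erythroid markers, 233 to 295 and 231 to 238 for 5 B cell markers, 303 to 443 and 329 to 361 for 7 T and NK cell markers, and 602 to 935 and 650 to 755 for 8 stromal and endothelial markers. The part of these cells in the differences of Idh1, Pcx and Me1 was not tested.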

How the data were processed

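Per the labels' protocols, total RNA was turned into biotinylated cDNA (GeneChip WT PLUS). What the authors deposited was 1 table of linear probe set intensity values for 34351 probe sets and 6 arrays, a scale judged from the values. How these were background corrected, normalized and summarised is not given in the sources. A shift common to most genes can be lost by normalization, and differences shrink near background. The number of arrays limits the precision. Probe sets were named through the platform annotation, in which 23521 had 1 symbol, 1814 several and 9016 none, and of several probe sets of a gene the one with the highest mean was used.

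Log2 values, with no pseudocount and no filter, were compared by lmFit and eBayes of limma 3.58.1 (R 4.3.3), with Benjamini-Hochberg adjustment over 22180 genes and a threshold of 0.05. The procedure was run on simulated data with independent noise for each gene and changes larger than the differences of the 33 genes. That run cannot tell how often differences of the sizes seen here would pass. Ratios of isoenzymes are descriptions. An exact permutation over the arrays was also run on them. With 3 arrays per group its p cannot fall under 0.1, so nothing is concluded from it. The genes, lists and tests were chosen with earlier results of these data known. Every array's values are given for those of the 33 genes with separate groups or an unadjusted p under 0.05, and for the smallest p of each step; others given by array were chosen after their values were seen. Of the other pathway genes the 5 with the smallest p are named. The alternatives tried were median centring, quantile normalization, leaving out dim genes, eBayes with trend and robust settings or none, a pseudocount of 16, averaging of probe sets, weights for arrays, a replicate block, and leaving out each array. Figures were drawn with matplotlib 3.10.9.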

Additional observations from a re-analysis of the deposited data

How the results depend on the processing

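Over 15 alternatives 0 of the 33 genes passed, and 16 of them kept the sign of their difference in each, among them Idh1, Idh2, Pcx, Me2, Sdhb, Slc25a1, Acly and Mdh1. Leaving out each array in turn gave 4 to 13 of the 33 genes at an unadjusted p under 0.05, where 6.54% to 16.5% of all genes were, and 7 to 19 with separate groups, where 21.2% to 32.3% of all genes had them, the highest counts and shares without WT 3. It gave median differences of -0.081 to 0.143 for the 33 genes and -0.052 to 0.075 for the other pathway genes. From succinate to oxaloacetate it gave 0.008 to 0.223. For the 33 genes and for that step the lowest value came without WT 1 and the highest without WT 3. The differences that changed sign when an array was left out ranged over Mpc1 -0.171 to 0.177, Pdha1 -0.345 to 0.138, Pdhb -0.447 to 0.117, Dlat -0.142 to 0.270, Pdhx -0.231 to 0.174, Dld -0.445 to 0.015, Pdk2 -0.022 to 0.087, Pdp1 -0.133 to 0.186, Cs -0.037 to 0.273, Idh3a -0.082 to 0.394, Ogdh -0.072 to 0.044, Suclg1 -0.063 to 0.155, Sucla2 -0.287 to 0.052, Suclg2 -0.157 to 0.308, Sdhc -0.012 to 0.017, Fh1 -0.015 to 0.223, Mdh2 -0.023 to 0.113. Others kept their sign but moved, up or down, by over 1.5 times from the difference with all 6 arrays. These were Aco1 -0.477 to -0.026, Idh3b -0.133 to -0.064, Idh3g 0.008 to 0.143, Dlst -0.314 to -0.044 and Sdha 0.040 to 0.314. They also included Sdhd 0.008 to 0.250, Mdh1 0.144 to 0.303, Me2 0.261 to 0.498 and Slc25a10 0.165 to 0.463. The remaining ranges were Pcx -0.568 to -0.324, Idh1 -0.714 to -0.485, Idh2 0.320 to 0.369 and Sdhb 0.172 to 0.228. Acly ranged over -0.268 to -0.162, Slc25a1 over -0.335 to -0.197 and Slc25a11 over -0.223 to -0.116. With quantile normalization the sign also changed for Pdp1 (0.009) and Ogdh (0.016), with median centring for Sdhc (-0.007), with array weights for Mpc1 (0.036), Pdhx (0.057), Pdp1 (0.050) and Ogdh (0.018), and with the mean over probe sets for Mpc1 (0.006). The cause was not tested. Deviations of same-numbered arrays of the groups had correlations over genes of 0.189, -0.185 and 0.061. Those of differently numbered arrays ran from -0.228 to 0.117, so that only the arrays numbered 1 exceeded them. The replicate block left 6 of the 33 genes at an unadjusted p under 0.05, where 11.1% of all genes were. It called 0 of the 33 and 9 of 22180. Signal near or below background limits Pcx and Pdk2, and Acss2 and Lipt1 among the other pathway genes.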
